A study of Mus musculus with 37 samples.

Results

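The genes described here are 8 noncoding RNA genes, Neat1, Malat1, Gas5, Snhg1, Snhg8, Snhg12, Dubr and Rnu3a, out of 53700 Ensembl genes counted in 37 libraries of mouse uterine natural killer (uNK) cells. They were selected on their levels in these same libraries, beside each library's share of reads given to no gene, with earlier results known, and the contrast that put each one on the list is not recorded. The differences below are therefore a description of these libraries. An adjusted p gives a gene's place among all genes tested and is not independent evidence for a gene chosen in this way. All 8 had reads in every library, and the lowest level of any of them in any library was 5.02 CPM (counts scaled to library size by TMM), so none passed the filter of 5 CPM through 1 group alone.

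The study sorted uNK cells from the pregnant uterus of C57BL6 mice at gestation day 9.5 to 10.5 and asked how cells educated by an inhibitory receptor for self MHC class I differ from cells without one. From WT mice there are 9 libraries of uneducated cells (Ly49C/I- NKG2A-), 9 of NKG2A+ cells (Ly49C/I- NKG2A+) and 6 of Ly49C/I+ cells (Ly49C/I+ NKG2A-). From NKG2A KO mice there are 8 libraries of uneducated cells and 5 of Ly49C/I+ cells, both sorted as in WT mice. The age of the pregnant mice, any pooling and whether groups shared mice were not given in the sources used here, so p-values measure the spread between these libraries. In bulk libraries, fewer cells expressing a gene and less RNA per cell cannot be told apart.

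Neat1 and Malat1 are long RNAs that stay in the nucleus. Neat1 is the scaffold of paraspeckles, which form only where the long form of this RNA is made, and Malat1 gathers at nuclear speckles, where splicing factors are stored. Gas5, Snhg1, Snhg8 and Snhg12 are host genes of small nucleolar RNAs (snoRNAs), which guide the chemical modification of ribosomal and spliceosomal RNA. The snoRNAs are cut out of their introns, and the spliced host RNAs are mostly short-lived, since translation of their short reading frames exposes them to nonsense-mediated decay. Dubr is a long noncoding RNA first described in muscle differentiation, and Rnu3a encodes U3, the snoRNA that takes part in the first cuts of ribosomal RNA processing. The last 2 are neither snoRNA hosts nor established nuclear scaffolds, so the 8 are a list of noncoding genes and not 1 class.

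In the GENCODE M21 annotation of GRCm38, Neat1 (ENSMUSG00000092274) is a minus-strand gene at chr19:5824708-5845478, close to Malat1 (ENSMUSG00000092341), which has the same orientation and spans chr19:5795690-5802672. The longest transcript of each has 1 exon, of 20771 bases in Neat1 and 6983 bases in Malat1. Among the hosts, Gas5 (ENSMUSG00000053332) holds 10 annotated snoRNA genes in its introns at 9 distinct positions, Snhg1 (ENSMUSG00000108414) 8, Snhg12 (ENSMUSG00000086290) 5 at 4 positions and Snhg8 (ENSMUSG00000104960) 1. No snoRNA gene lies in an intron of Dubr (ENSMUSG00000022639). The exons of some host transcripts run across these snoRNA genes, so reads there could be given to either gene or to none. Part of Malat1 (453 bases, 6.49% of its exonic length) is overlapped by an antisense gene, Gm37376, and reads from the 2 cannot be told apart if counting ignored the strand, which is not stated. Of the stretches of 50 bases in the members' transcripts, between 0.61% (Rnu3a) and 10.6% (Snhg12) also occur in transcripts of another gene.

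Many snoRNA host genes and ribosomal protein genes start transcription with a C in a run of pyrimidines, known as a terminal oligopyrimidine tract. The start regions of the hosts are shown because they were searched for this feature, which was not used to choose the genes. Not all carry it: Snhg1 does not, and for Gas5 only the second annotated start, which does, is printed. They are RefSeq sequences of build GRCm38.p6, 50 bases before to 50 bases after the annotated start, on the strand of the gene. Capitals mark a C followed by at least 5 further C or T whose first base lies within 10 bases of the start. They come from chr1:161035116-161035215 (plus strand) for the second annotated start of Gas5, chr19:8723437-8723536 (plus) for Snhg1, chr3:123508287-123508386 (minus) for Snhg8 and chr4:132308628-132308727 (plus) for Snhg12.
Gas5: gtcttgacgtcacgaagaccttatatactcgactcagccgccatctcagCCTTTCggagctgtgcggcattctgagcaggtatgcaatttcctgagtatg
Snhg1: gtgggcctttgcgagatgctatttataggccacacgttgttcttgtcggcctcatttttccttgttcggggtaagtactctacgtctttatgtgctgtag
Snhg8: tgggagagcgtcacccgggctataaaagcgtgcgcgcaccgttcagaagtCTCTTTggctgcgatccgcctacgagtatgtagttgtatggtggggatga
Snhg12: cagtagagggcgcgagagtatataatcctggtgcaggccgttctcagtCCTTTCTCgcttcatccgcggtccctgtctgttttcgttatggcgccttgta

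The run was found in 3 of the 7 start regions of members in the table (42.9%), those of Gas5, Snhg8 and Snhg12, and not in those of Snhg1, Malat1, Dubr or the first start of Gas5. It was present in 17.8% of all 32851 start regions, in 43.2% of the 74 of cytosolic ribosomal protein genes and in 35.7% of the 14 of numbered Snhg genes. The window in Snhg1 shows the letters that were searched and says nothing of starts elsewhere.

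Rnu3a (ENSMUSG00000106147) is a single exon of 213 bases on the plus strand, chr10:40258467-40258679. Its GENCODE M21 sequence (GRCm38) is shown because this gene had the largest difference among the 8, and because U3 belongs to the class of snoRNAs with boxes C and D. Capitals mark every TGATGA and CTGA, letters of these boxes, which were searched on this strand and do not overlap.
Rnu3a: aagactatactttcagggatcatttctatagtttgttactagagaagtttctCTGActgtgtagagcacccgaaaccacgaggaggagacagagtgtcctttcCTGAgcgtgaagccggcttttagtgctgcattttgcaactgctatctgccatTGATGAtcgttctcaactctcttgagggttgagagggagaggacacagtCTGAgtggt

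TGATGA was found once, at base 156, and CTGA at bases 53, 104 and 205, counted from the 5′ end. Both are held by 25.2% of the 1507 annotated snoRNA genes.

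Between 13287163 and 18875033 reads were counted on genes per library (median 17273311), and the 8 members took 0.0428% to 0.144% of them. Klrc1, which encodes NKG2A, stood at 494 to 760 CPM in NKG2A+ libraries and at 0.766 to 13.8 CPM elsewhere, and Klra9 (Ly49I) at 464 to 1140 CPM in Ly49C/I+ libraries and at no more than 123 CPM elsewhere. Since both KO groups were sorted without NKG2A, this does not check the genotype. The 7 NK cell markers summed to 7484 CPM or more in every library, and Cd4, Cd8a, Ms4a1, Cdh5, Tpbpa and Hand2 were at 0 in 31 to 36 of the 37 libraries. Other markers of the same cell types had reads in every library, among them Cd3g (29.1 to 180 CPM), Trac (16.8 to 62.3 CPM) and Pecam1 (124 to 338 CPM), while Prl8a2 reached 893 CPM and Lyz2 298 CPM, each at 0 in 1 library. A pair of libraries stood apart. KO uneducated 4 gave 5.67% of its reads to no gene, against 2.69% to 4.08% in the rest of its group, and WT uneducated 5 had the highest mitochondrial share of all, 1.12%, with 13990 genes with a read. The second label line of WT uneducated 5 repeats that of WT uneducated 4, and its title was followed here.

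Per kilobase of exonic sequence, Gas5 was the highest member in WT uneducated cells with 66.1 ± 17.0 CPM per kb (SD, n = 9). Rnu3a (43.0 ± 11.7) and Malat1 (35.3 ± 24.1) followed and differed by less than their spread, as did Snhg1 (20.8 ± 4.21) and Snhg8 (17.2 ± 6.68). Snhg12 (5.11 ± 2.04), Dubr (3.07 ± 0.564) and Neat1 (2.06 ± 0.591) were the lowest. The 20771 bases used for Neat1 are the length of its longest transcript, and gene counts do not tell its 4 transcripts apart. Its place per kilobase thus depends on which of them the reads came from, which was not tested. All further levels are in CPM and are compared within a gene.

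**Figure D1:**
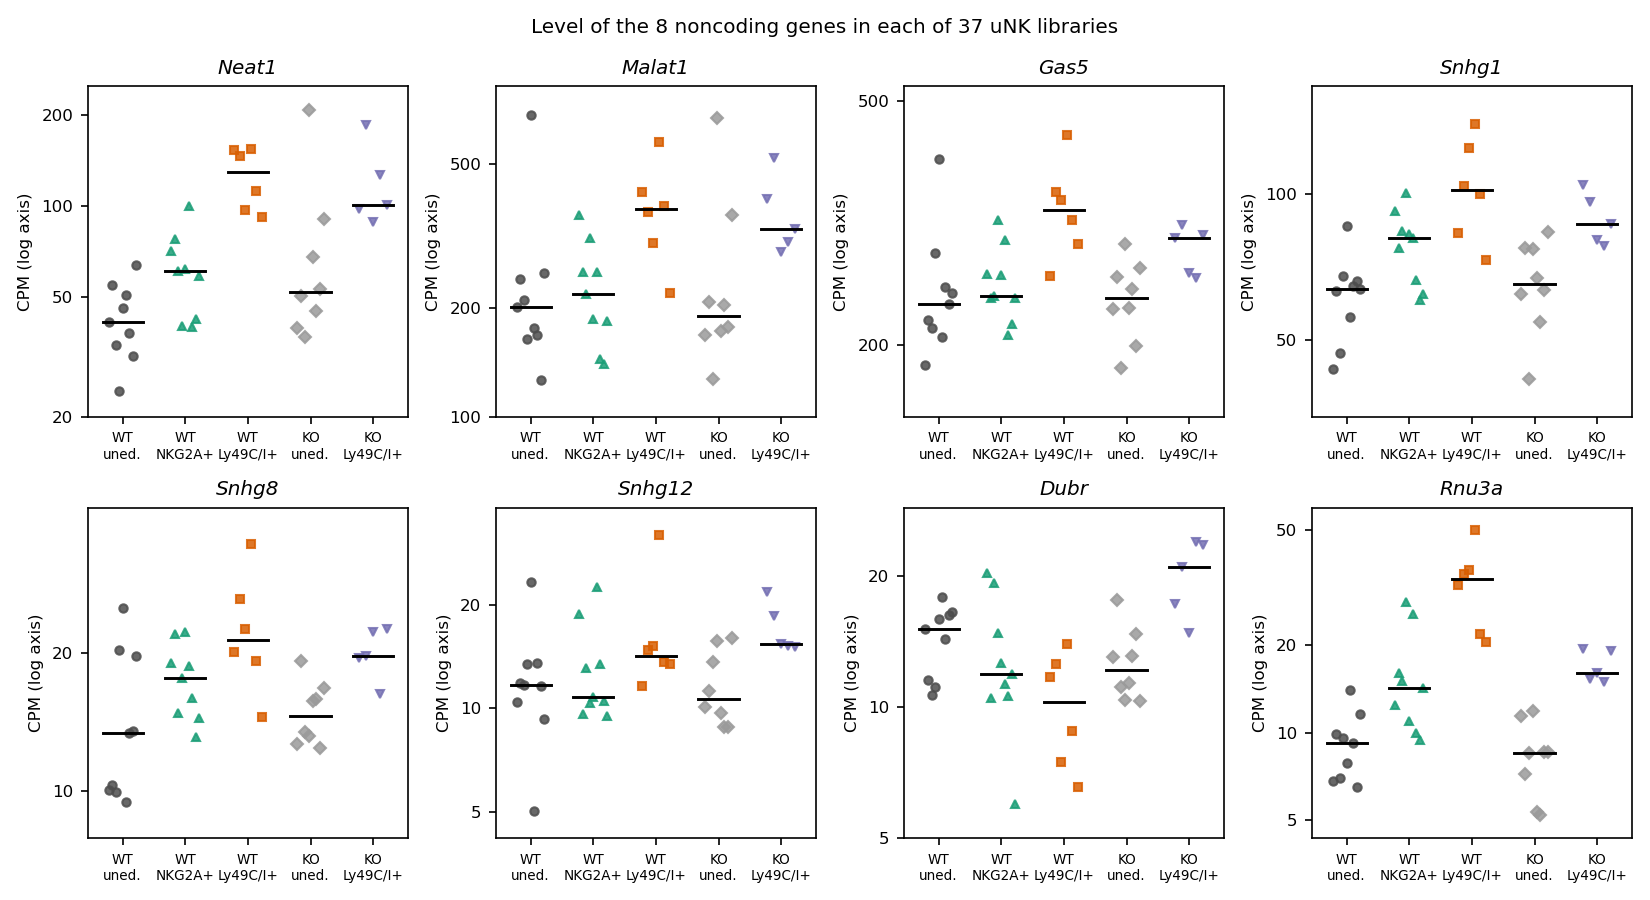
Level of each of the 8 noncoding genes (CPM, log axis) in the 37 libraries by group, with 1 point per library and a bar at the group's median. Rnu3a in WT Ly49C/I+ cells (20.6 to 49.9 CPM) and Neat1 in the same cells (91.9 to 154 CPM) lay above every WT uneducated library, and 1 WT and 1 KO uneducated library stood far above the rest of their groups in Malat1.

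Neat1 was highest in Ly49C/I+ cells. In WT uneducated cells it ranged from 24.3 to 63.7 CPM (median 41.3), in NKG2A+ cells from 39.8 to 100.1 CPM (median 60.65) and in Ly49C/I+ cells from 91.9 to 154 CPM (median 129). Each of the 6 Ly49C/I+ libraries lay above all 9 uneducated libraries. The log2 difference of Ly49C/I+ from uneducated cells was 1.54 ± 0.19 (SE), or 2.92-fold (adjusted p = 0.000302), and held its call without any 1 of the 15 libraries (highest adjusted p 0.00169). NKG2A+ cells were lower than Ly49C/I+ cells by 1.03 ± 0.19 on the log2 scale (0.488-fold, adjusted p = 0.00708), which also held in all 15 cases. NKG2A+ and uneducated cells differed by 0.52 ± 0.19 (adjusted p = 0.0716), short of the threshold. This difference passed with DESeq2 (adjusted p = 0.0487), with GC and length offsets (adjusted p = 0.0448) and with the replicate number as a block (adjusted p = 0.0159). Without NKG2A+ library 6 it was 0.41 (adjusted p = 0.162).

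In NKG2A KO mice, Neat1 ranged from 36.9 to 207.5 CPM in uneducated cells (median 51.8), and the 5 Ly49C/I+ libraries had 97.3, 185, 88.1, 127 and 101 CPM. The groups overlapped through the uneducated libraries at 207.5 and 90.2 CPM, and the difference was 0.68 ± 0.35 (adjusted p = 0.194). Without KO uneducated 4, the library at 207.5 CPM, it was 1.11 (adjusted p = 0.00313), and without KO Ly49C/I+ 5, at 185 CPM, it was 0.47 (adjusted p = 0.423). Neat1 was 1.74-fold as high in KO as in WT uneducated cells (log2 difference 0.80 ± 0.30, adjusted p = 0.639). Without KO uneducated 4 this log2 difference was 0.36 (adjusted p = 0.982).

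Malat1 had differences of the same sign as Neat1 between Ly49C/I+ and uneducated cells. It did not pass the threshold in any main fit (edgeR's quasi-likelihood test, all libraries of the groups compared, no block, covariate or offsets). Its median was 201.6 CPM in WT uneducated (126.7 to 684), 219 in WT NKG2A+ (139.9 to 362.3) and 374.9 in WT Ly49C/I+ cells (219.2 to 576.3). In KO mice it was 190.5 CPM (127.1 to 669.3) in uneducated libraries and 401, 518, 285, 305 and 330.0 CPM in the 5 Ly49C/I+ libraries. In both genotypes 1 uneducated library lay above every Ly49C/I+ library, and the groups overlapped.

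The Malat1 difference of Ly49C/I+ from uneducated cells was 0.61 ± 0.30 in WT (adjusted p = 0.216) and 0.48 ± 0.32 in KO mice (adjusted p = 0.325). Without WT uneducated 5 (684 CPM) the former was 0.98 (adjusted p = 0.00283), and without KO uneducated 4 (669.3 CPM) the latter was 0.84 (adjusted p = 0.0108). Without WT Ly49C/I+ 5 or KO Ly49C/I+ 5 they were 0.45 (adjusted p = 0.431) and 0.32 (adjusted p = 0.565). With the replicate number as a block, the WT difference passed the threshold (adjusted p = 0.0291). NKG2A+ cells were at -0.73 ± 0.21 from Ly49C/I+ cells (adjusted p = 0.0663), and passed the threshold without NKG2A+ library 1 (adjusted p = 0.0336) or Ly49C/I+ library 8 (adjusted p = 0.0345). That difference also passed with the likelihood ratio test (adjusted p = 0.0189) and with GC and length offsets (adjusted p = 0.0473). Without Ly49C/I+ library 5 it was -0.57 (adjusted p = 0.155).

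All 4 snoRNA hosts had a higher fitted level in Ly49C/I+ than in uneducated cells in both genotypes. In the main fits, Snhg1 in WT mice was the only one of these 8 differences to pass the threshold. Snhg1, whose introns give U22 and several box C/D snoRNAs, ranged from 43.4 to 86.0 CPM in WT uneducated (median 63.8), 60.5 to 100.7 in NKG2A+ (median 81.3) and 73.2 to 139.7 CPM in Ly49C/I+ cells (median 102.2). The groups overlapped. Its difference between Ly49C/I+ and uneducated cells was 0.74 ± 0.16 (1.67-fold, adjusted p = 0.00778), and held without any 1 of the 15 libraries (highest adjusted p 0.0238). NKG2A+ cells differed from uneducated cells by 0.35 ± 0.13 (adjusted p = 0.0671), and passed without WT uneducated 5 (adjusted p = 0.0166) or NKG2A+ library 8 (adjusted p = 0.045). Without NKG2A+ library 4 the adjusted p was 0.127. In KO mice the 8 uneducated libraries ranged from 41.5 to 83.5 CPM and the 5 Ly49C/I+ libraries had 104.4, 96.5, 80.6, 78.1 and 86.9 CPM. The difference there was 0.42 ± 0.14 (adjusted p = 0.0555), and passed without KO uneducated 4 (adjusted p = 0.0428) or KO uneducated 8 (adjusted p = 0.0403). Without KO Ly49C/I+ 4 its adjusted p was 0.148.

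Gas5, the host with the most snoRNAs of the 4, did not pass the threshold in any main fit. It ranged from 186.1 to 402.2 CPM in WT uneducated (median 233.8), 207.6 to 320.0 in NKG2A+ (median 240.3) and 259.8 to 441.1 CPM in Ly49C/I+ cells (median 332.7). The uneducated library at 402.2 CPM was number 5, which stood apart in its mitochondrial reads. The difference of Ly49C/I+ from uneducated cells was 0.42 ± 0.15 (adjusted p = 0.0795), and without WT uneducated 5 it was 0.55 (adjusted p = 0.00528). Without WT Ly49C/I+ 5 it was 0.33 (adjusted p = 0.198). With all libraries it passed with DESeq2 (adjusted p = 0.0379), with all groups in 1 fit (adjusted p = 0.0142) and with the replicate number as a block (adjusted p = 0.0293). NKG2A+ cells were at -0.40 ± 0.11 from Ly49C/I+ cells (adjusted p = 0.0548), and passed without NKG2A+ library 4 or 6 or Ly49C/I+ library 1 (adjusted p = 0.0333, 0.0424 and 0.0208) and with DESeq2, the likelihood ratio test or GC and length offsets (adjusted p = 0.0135, 0.0195 and 0.0336). Without Ly49C/I+ library 5 the difference of NKG2A+ from Ly49C/I+ cells was -0.31 (adjusted p = 0.133). In KO mice Gas5 was at 183.6 to 292.7 CPM in uneducated libraries and at 299.6, 314.6, 262.4, 257.7 and 303.1 CPM in Ly49C/I+ libraries. That difference was 0.25 ± 0.10 (adjusted p = 0.104), and 0.30 without KO uneducated 4 (adjusted p = 0.0416). Without KO Ly49C/I+ 5 its adjusted p was 0.204.

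Snhg8 and Snhg12 were counted at lower depth, with 158 to 542 and 84 to 501 reads per library. Snhg8, host of a single snoRNA, had medians of 13.4 CPM in WT uneducated (9.44 to 25.2), 17.7 in NKG2A+ (13.1 to 22.3) and 21.4 CPM in Ly49C/I+ cells (14.5 to 34.7). Snhg12 had medians of 11.7 (5.02 to 23.4), 10.8 (9.51 to 22.6) and 14.2 CPM (11.6 to 32.1) in the same groups. In both genes all groups overlapped. Their differences between Ly49C/I+ and uneducated cells were 0.64 ± 0.27 (adjusted p = 0.14) for Snhg8 and 0.44 ± 0.30 (adjusted p = 0.394) for Snhg12 in WT, and 0.41 ± 0.19 (adjusted p = 0.14) and 0.53 ± 0.23 (adjusted p = 0.118) in KO mice. Snhg8 passed the threshold in WT mice without uneducated 5 (0.78, adjusted p = 0.0426), and was at 0.48 without Ly49C/I+ 5 (adjusted p = 0.313).

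Dubr differed from the other members, with opposite signs of its Ly49C/I+ difference in the 2 genotypes. In WT mice it ranged from 10.7 to 17.9 CPM in uneducated (median 15.1), 5.99 to 20.3 in NKG2A+ (median 11.9) and 6.54 to 13.95 CPM in Ly49C/I+ cells (median 10.25). In KO mice it ranged from 10.3 to 17.5 CPM in uneducated libraries (median 12.2), and the 5 Ly49C/I+ libraries had 17.2, 21.0, 14.7, 23.9 and 23.5 CPM. All 5 KO Ly49C/I+ libraries lay above all 6 WT Ly49C/I+ libraries.

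The Dubr difference of Ly49C/I+ from uneducated cells was -0.51 ± 0.24 in WT (adjusted p = 0.203) and 0.64 ± 0.21 in KO mice (adjusted p = 0.0428). The latter call was lost without any 1 of 10 of the 13 libraries, KO uneducated 1, 3, 4, 5, 6 or 8 or KO Ly49C/I+ 4, 5, 7 or 8 (highest adjusted p 0.108). KO and WT Ly49C/I+ cells differed by 0.98 ± 0.28 (1.97-fold, adjusted p = 0.25), and the difference between the genotypes' Ly49C/I+ effects was 1.14 ± 0.30 (adjusted p = 0.998). Neither passed over all genes.

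Rnu3a had the largest difference of the 8 genes. It ranged from 6.51 to 14.0 CPM in WT uneducated (median 9.18), 9.44 to 28.2 in NKG2A+ (median 14.3) and 20.6 to 49.9 CPM in Ly49C/I+ cells (median 33.8), from 112 to 780 reads in these libraries. Every Ly49C/I+ library lay above every uneducated library, while NKG2A+ libraries overlapped both. Ly49C/I+ cells were 3.55-fold higher than uneducated cells (log2 difference 1.83 ± 0.24, adjusted p = 0.000464), which held without any 1 of the 15 libraries (highest adjusted p 0.00205). NKG2A+ cells were 1.73-fold higher than uneducated cells (0.79 ± 0.25, adjusted p = 0.0342), but this call was lost without WT uneducated 1, 3, 4 or 8 or NKG2A+ library 2, 4 or 6 (highest adjusted p 0.0801), and with GC and length offsets (0.60, adjusted p = 0.103). The difference of NKG2A+ from Ly49C/I+ cells was -1.05 ± 0.26 (adjusted p = 0.0379), and was lost without any 1 of 10 of the 15 libraries, NKG2A+ 1, 2, 3, 5, 7 or 8 or Ly49C/I+ 1, 2, 4 or 5 (highest adjusted p 0.0967).

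In NKG2A KO mice Rnu3a ranged from 5.18 to 11.8 CPM in uneducated cells (median 8.51), and the 5 Ly49C/I+ libraries had 19.4, 15.3, 16.0, 15.0 and 19.2 CPM, all above the uneducated ones. The difference was 1.01 ± 0.25 (2.02-fold, adjusted p = 0.0112), which held without any 1 of the 13 libraries (highest adjusted p 0.0351). All 5 KO Ly49C/I+ libraries lay below all 6 WT Ly49C/I+ libraries, by -0.95 ± 0.24 (adjusted p = 0.204). Set against each other, the Ly49C/I+ effects of KO and WT mice differed by -0.83 ± 0.34 (adjusted p = 0.998).

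**Figure D2:**
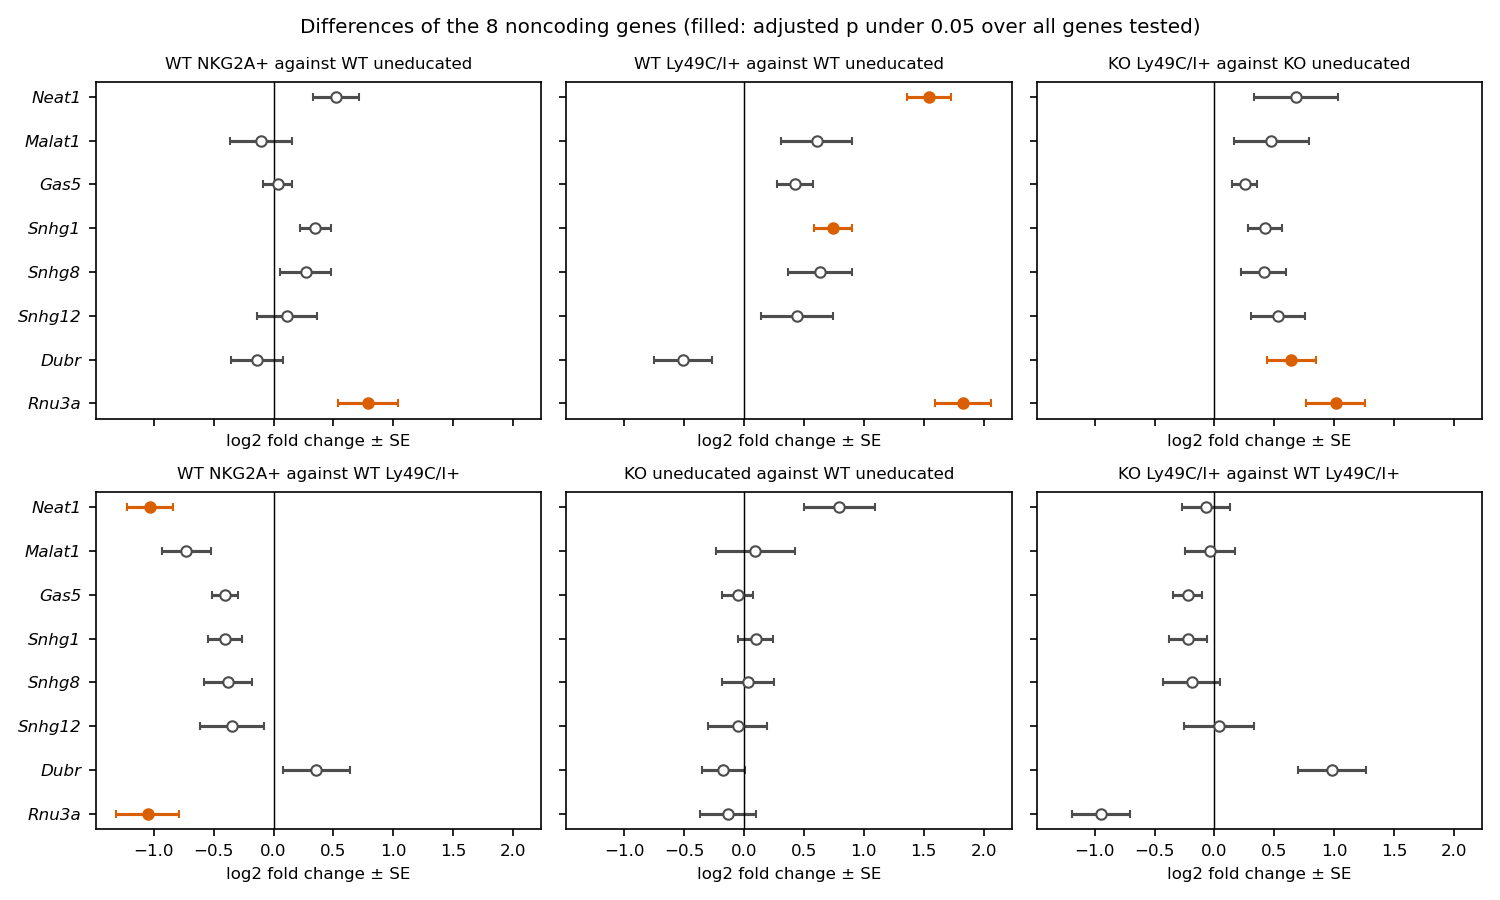
Log2 fold change of each of the 8 genes (edgeR, bars are SE) in the 6 comparisons of groups, with filled points for an adjusted p under 0.05 over all genes tested. The first 3 panels compare educated with uneducated cells, and Neat1 (1.54), Rnu3a (1.83) and Snhg1 (0.74) are filled for WT Ly49C/I+ cells. The panels of KO against WT cells hold no filled point.

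Counted over the list, 1 of 8 members was called higher and 0 lower between NKG2A+ and uneducated WT cells, where 15.0% of 9339 genes were called (7.47% higher, 7.56% lower). Between Ly49C/I+ and uneducated WT cells 3 of 8 were called, all higher, where 9.30% of 9292 genes were called (4.25% higher, 5.05% lower). Between NKG2A+ and Ly49C/I+ cells 2 of 8 were lower, against 2.73% of 9308 genes called (1.31% higher, 1.42% lower). In KO mice 2 of 8 were higher in Ly49C/I+ cells, where 16.3% of 9299 genes were called (7.34% higher, 8.99% lower). The median log2 difference of the 8 members in these comparisons was 0.19, 0.62, -0.40 and 0.50, while that of all genes tested was within 0.023 of 0. The comparisons share libraries, so these values are not independent of each other.

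Between KO and WT mice no member and no gene was called in the main fits. This was 0% of 9288 genes in uneducated cells, 0% of 9344 in Ly49C/I+ cells and 0% of 9322 for the Ly49C/I+ effect of KO against that of WT mice. At an unadjusted p under 0.05 there were 619, 1001 and 414 genes, among them 1, 2 and 3 members. The likelihood ratio test called 1, 62 and 0 genes and DESeq2 called 1, 118 and 1. All groups in 1 fit, also by quasi-likelihood, gave 18 genes for KO against WT Ly49C/I+ cells. Of the members only Rnu3a in Ly49C/I+ cells passed, by the likelihood ratio test (adjusted p = 0.0487).

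Each file also counts the reads given to no gene. Their share was 2.90% to 4.47% in WT uneducated, 3.01% to 4.49% in NKG2A+ and 4.16% to 6.83% in Ly49C/I+ libraries of WT mice, and 2.69% to 5.67% in uneducated and 3.94% to 5.26% in Ly49C/I+ libraries of KO mice. In WT mice the mean of Ly49C/I+ libraries was 1.87 percentage points above that of uneducated libraries (5.30 ± 0.99 against 3.44 ± 0.50%, SD, n = 6 and 9, two-sided exact permutation test, p = 0.0003996, adjusted over 6 comparisons 0.002398). NKG2A+ libraries were 1.57 points below Ly49C/I+ libraries (permutation adjusted p = 0.002398). The KO difference was 0.943 points (permutation adjusted p = 0.1709), and 1.25 without KO uneducated 4 (permutation adjusted p = 0.007576). In WT mice the share, Neat1 and Rnu3a thus passed the threshold between Ly49C/I+ cells and both other groups. In KO mice Rnu3a passed and the share did not, though both had a higher mean in Ly49C/I+ libraries. Whether Rnu3a and the share part in KO mice was not tested.

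Within groups, Malat1 and Neat1 were higher in libraries with a larger share of such reads. After removing group means, the correlation of log2(CPM + 1) with the share over 37 libraries was r = 0.86 for Malat1 (rho = 0.86) and r = 0.81 for Neat1 (rho = 0.80), each with a permutation p of 1e-05, the smallest that the 100000 permutations within groups can give. These were the highest and second highest of the 9287 genes that passed the filter over all libraries, whose median was -0.02 and whose 90th percentile was 0.32. Snhg1 (r = 0.63, rho = 0.62, permutation p = 0.00024), Gas5 (0.60, 0.54, 8e-05) and Snhg12 (0.57, 0.42, 0.00025) ranked 36, 57 and 99, and Rnu3a (0.49, 0.45, 0.00422) ranked 231. Snhg8 (0.40, 0.38, 0.01174) and Dubr (0.33, 0.39, 0.04944) came lower, Dubr at rank 816. In all, 8 relations were computed, and p-values are unadjusted. The genes were chosen beside this same share with results known, so these p-values and ranks describe the libraries and are not independent evidence. The points share depth and library scaling.

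Without the 2 libraries farthest from the median share, WT Ly49C/I+ 2 and 5, r was 0.89 for Malat1, 0.85 for Neat1 and 0.40 to 0.58 for Gas5, Snhg1, Snhg12 and Rnu3a. For Snhg8 (0.26, permutation p = 0.1055) and Dubr (0.20, permutation p = 0.2407) the relation rested on those libraries. Without KO uneducated 4 and WT uneducated 5 instead, r was 0.82 for Malat1, 0.74 for Neat1 and 0.47 to 0.61 for the other 6. Within single groups, Malat1 gave r = 0.91 in WT uneducated, 0.94 in KO uneducated, 0.85 in NKG2A+ and 0.88 in WT Ly49C/I+ libraries (n = 9, 8, 9 and 6), and Neat1 gave 0.67, 0.98, 0.73 and 0.89. Without the 2 libraries of each group farthest from its median share, Malat1 gave 0.67, 0.32, 0.82 and 0.52 and Neat1 0.86, 0.77, 0.76 and 0.87. The other members were less even. In KO uneducated libraries Dubr gave r = -0.42 and Snhg8 -0.06, and in WT uneducated libraries Gas5 and Snhg8 went from 0.61 and 0.47 to -0.38 and -0.69 without the 2 libraries. The KO Ly49C/I+ group of 5 is too small for a value.

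With the log2 share of reads given to no gene as a term of the fit, no member was called in any comparison. In Ly49C/I+ against uneducated WT cells the log2 difference became 0.71 for Neat1 (adjusted p = 0.195), 0.29 for Snhg1 (adjusted p = 0.581) and 1.18 for Rnu3a (adjusted p = 0.19), and that of Malat1 turned from 0.61 to -0.78. The genes called there went from 864 to 12 of 9292, in NKG2A+ against Ly49C/I+ cells from 254 to 25, and in KO mice from 1519 to 359. In KO mice Rnu3a became 0.86 and Dubr 0.75 (adjusted p = 0.117 each). Because the share differs between the groups, the part of it and of the sorted receptor in these differences cannot be told apart.

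**Figure D3:**
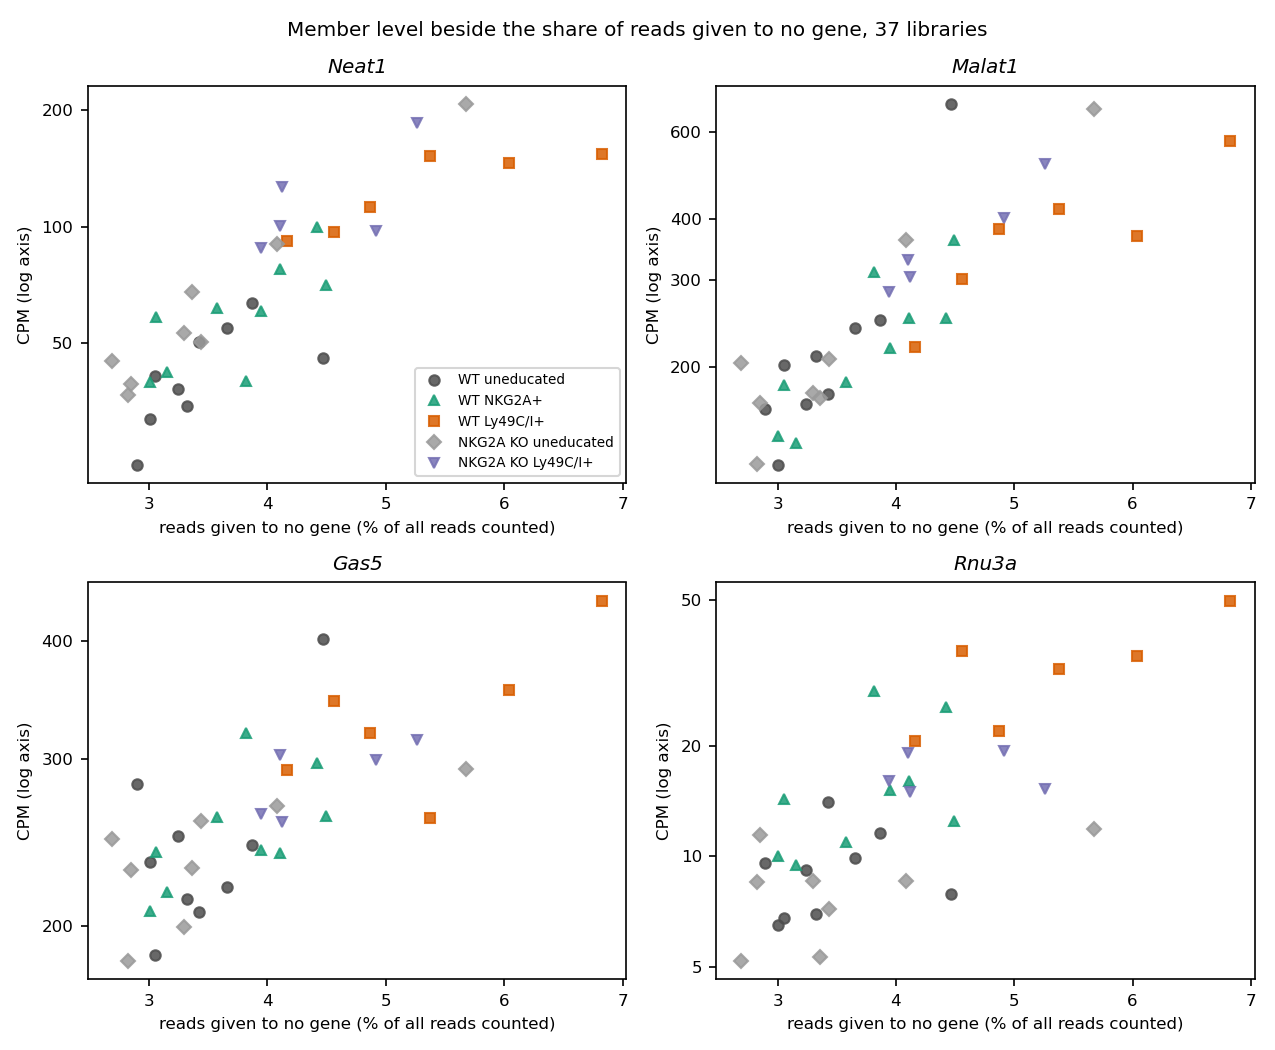
Level of Neat1, Malat1, Gas5 and Rnu3a (CPM, log axis) against the share of reads given to no gene (% of all reads counted) in 37 libraries, with color and shape for the group. Levels tend to be higher at a larger share, with r of 0.81, 0.86, 0.60 and 0.49 after group means are removed, and the 2 libraries with the largest shares, 6.04% and 6.83%, are WT Ly49C/I+ 2 and 5.

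**Figure D4:**
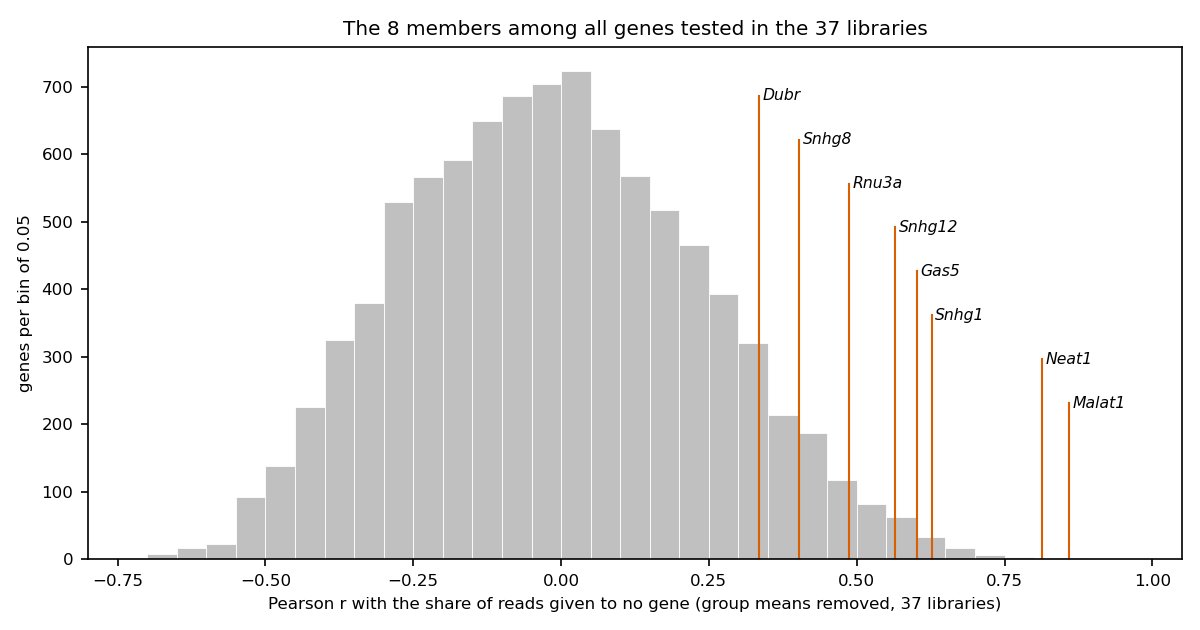
Pearson r of each of 9287 genes with the share of reads given to no gene over 37 libraries, group means removed, as gene counts in bins of 0.05, with lines at the 8 members. Malat1 (0.86) and Neat1 (0.81) lie at the right edge, and Dubr (0.33) is the lowest of the 8.

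Some other measures differed between the groups, not always in the same order. The 2 erythroid markers summed to a median of 413 CPM (123 to 889) in WT uneducated, 1008 (480 to 1833) in NKG2A+ and 815 CPM (572 to 1829) in Ly49C/I+ libraries, and to 421 and 555 CPM in KO uneducated and Ly49C/I+ libraries. The 3 epithelial markers, mainly Epcam, went the other way, from a median of 72.3 CPM in WT uneducated to 35.6 in NKG2A+ and 31.4 in Ly49C/I+ libraries, and from 49.2 to 19.2 CPM in KO mice. The 2 endothelial markers, nearly all Pecam1, had medians of 251 CPM in WT uneducated, 169 in NKG2A+ and 168 in Ly49C/I+ libraries, and 215 and 174 CPM in KO uneducated and Ly49C/I+ libraries. The median mitochondrial share of gene reads was 0.339% in WT uneducated, 0.374% in NKG2A+ and 0.447% in Ly49C/I+ libraries, and 0.307% and 0.431% in KO uneducated and Ly49C/I+ libraries. Of all genes, 7.47% were higher in NKG2A+, 4.25% in WT Ly49C/I+ and 7.34% in KO Ly49C/I+ than in uneducated cells. Of 10 genes that respond to tissue dissociation, such as Junb, Dusp1 and Ier2, 3 were higher and 0 lower in each comparison of educated with uneducated cells (median 0.38 in NKG2A+, 0.45 in WT Ly49C/I+ and 0.54 in KO Ly49C/I+ cells). The part of these in the members' differences was not tested.

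Among themselves, the members formed no single block. Of 28 pairs, all had a positive r over 37 libraries after removing group means. The closest was Gas5 with Snhg1 (r = 0.82, rho = 0.83, permutation p = 1e-05, the smallest the permutations can give), followed by Gas5 with Snhg8 (0.72, 0.70), Malat1 with Gas5 (0.71, 0.56) and Neat1 with Malat1 (0.69, 0.73). Neat1 with Gas5 gave 0.30 (rho = 0.27) and Dubr with Snhg12 0.08 (rho = -0.02). Without the 2 libraries farthest from their group mean in the first gene, these were 0.80, 0.57, 0.54, 0.57, 0.14 and 0.07, in the same order.

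Over the 9287 genes and 37 libraries, the 3 genes most like Gas5 in this measure were Snhg1, Eif5 and Ccnl1 (r = 0.82, 0.80 and 0.79), and those most like Snhg1 were Gas5, Zfas1, another snoRNA host, and Taf1d (0.82, 0.79 and 0.75). Those most like Neat1 were Mlxip, Dgat1 and Rsrp1 (0.76, 0.74 and 0.74), and those most like Malat1 were Dgat1, Ankrd11 and Mlxip (0.81, 0.79 and 0.78). Neither Neat1 nor Malat1 had the other among its 3.

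Of the 14 numbered Snhg genes 8 were tested, and in Ly49C/I+ cells all 8 had a positive log2 difference from uneducated cells in WT (median 0.47) and in KO mice (median 0.42), where 4645 of 9292 and 4870 of 9299 of all genes did. The 8 include Snhg1, Snhg8 and Snhg12, which were chosen on these same levels, so the counts and medians are no test. Only Snhg1 passed in WT, and only Snhg5 in KO mice (0.47 ± 0.11, adjusted p = 0.00604), which also passed in NKG2A+ cells (0.48 ± 0.15, adjusted p = 0.0358). The files hold 322 genes with an annotated snoRNA in an intron, the members Gas5, Snhg1, Snhg8 and Snhg12 among them. Of 191 tested, 7 were higher and 12 lower in WT Ly49C/I+ cells (median -0.08), where 4.25% of all genes were higher and 5.05% lower, and of 192 tested in KO mice 10 were higher and 35 lower (median -0.14), where 7.34% and 8.99% were. Of these, Eif4a2, a translation initiation helicase, rose (0.65 ± 0.10, adjusted p = 0.000845), and Dkc1 (-0.87 ± 0.12, adjusted p = 0.000844) fell in WT mice.

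Few small structured RNAs passed the filter, and most of those that did were higher in educated cells. In WT Ly49C/I+ cells all 3 tested were higher, Rnu3a, Snord13 (1.36 ± 0.25, adjusted p = 0.00385), a guide of ribosomal RNA acetylation, and Snord104 (1.07 ± 0.31, adjusted p = 0.0365). In KO mice all 4 tested were higher, Snord118 (1.19 ± 0.35, adjusted p = 0.0282), which is U8, in addition. In NKG2A+ cells 2 of 3 were higher, with Snord13 at 0.89 ± 0.25 (adjusted p = 0.0191). The lists tested hold only what passed 5 CPM, from 123 such genes in the files. Snord104 averaged 4.74 CPM in WT uneducated and 10 CPM in WT Ly49C/I+ libraries, and Snord118 3.06 and 7.05 CPM in KO mice. These genes thus met the filter partly through the group where they are high, and the counts are no test. Of all genes, 4.25% were higher in WT Ly49C/I+, 7.34% in KO Ly49C/I+ and 7.47% in NKG2A+ cells.

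Of 13 proteins of snoRNA particles, 2 were lower and 0 higher in WT Ly49C/I+ cells (median -0.27), where 5.05% of all genes were lower, Dkc1, the pseudouridine synthase of box H/ACA particles, and its partner Gar1 (-0.44 ± 0.13, adjusted p = 0.0413). In KO mice 7 were lower and 0 higher (median -0.29), where 8.99% of all genes were lower, among them Dkc1 (-0.71 ± 0.11, adjusted p = 0.00074), Nhp2 (-0.55 ± 0.10, adjusted p = 0.00187) and Fbl, the methyltransferase of box C/D particles (-0.42 ± 0.11, adjusted p = 0.0177). In NKG2A+ cells 3 of 13 were lower and 0 higher (median -0.26), Nhp2, Nop10 and Dkc1, where 7.56% of all genes were lower. The 78 tested ribosomal protein genes gave 2 higher and 1 lower in WT Ly49C/I+ cells (median -0.045), 0 higher and 24 lower in NKG2A+ cells (median -0.21) and 1 higher and 14 lower in KO Ly49C/I+ cells (median -0.15). In the same order, 4.25%, 7.47% and 7.34% of all genes were higher and 5.05%, 7.56% and 8.99% lower.

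Protein partners of the nuclear RNAs are set beside all genes tested, of which 4.25% were higher and 5.05% lower in WT Ly49C/I+ cells. In KO Ly49C/I+ cells these shares were 7.34% and 8.99%. Of 13 paraspeckle proteins, Hnrnpa1 alone was lower and 0 were higher in KO Ly49C/I+ cells (-0.38 ± 0.09, adjusted p = 0.00718, median of the list -0.10). Of 12 nuclear speckle proteins, Srsf7 (0.45 ± 0.09, adjusted p = 0.00713) and Srsf3 (0.30 ± 0.07, adjusted p = 0.0123) were higher in WT Ly49C/I+ cells, and Srsf5 and Srsf7 in KO mice. None of the 12 was lower in either comparison, and the medians were -0.05 and 0.07. Of 14 nonsense-mediated decay factors, 1 was higher in WT (Smg6) and 1 higher and 1 lower in KO Ly49C/I+ cells (Upf2 and Rbm8a), with medians of 0.01 and 0.13.

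Among 13 genes known for introns that stay in nuclear transcripts, 7 were higher and 0 lower in WT Ly49C/I+ cells (median 0.42). There 4.25% of all genes were higher. Rsrp1 (0.82 ± 0.12, adjusted p = 0.000902), Ccnl2 (0.94 ± 0.15, adjusted p = 0.00122), Clk1 and Rbm39 came first. In KO Ly49C/I+ cells 8 of the 13 were higher and 0 lower (median 0.43), where 7.34% of all genes were higher. In NKG2A+ cells these counts were 5 and 0 (median 0.17), where 7.47% of all genes were higher. The median r of these 13 genes with the share of reads given to no gene was 0.51, against -0.02 over all genes. Of 11 other long noncoding RNAs tested, 4 were higher and 0 lower in WT Ly49C/I+ cells (median 0.69), Zfas1 (0.57 ± 0.13, adjusted p = 0.0108), Lncpint (1.71 ± 0.43, adjusted p = 0.0183), Pvt1 and Mir142hg. In KO mice 3 were higher and 0 lower (median 0.37), Xist, Zfas1 and Mir22hg. The shares of all genes called higher were again 4.25% in WT and 7.34% in KO Ly49C/I+ cells.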

How the data were processed

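Total RNA of sorted uNK cells was converted to cDNA with SMART-Seq v4, which primes on poly(A) tails, and libraries were made with Nextera XT. U3 and mature Malat1 lack an ordinary poly(A) tail. The authors trimmed reads (Trim Galore 0.5.0), mapped them with STAR 2.7.1 to GRCm38 and deposited raw counts per Ensembl gene for each of the 37 libraries, without normalization. The sources used here name neither the counting program nor its use of strand. Library sizes and tests did not include the 5 summary lines that name no gene. Reads given to no gene came to 2.69% to 6.83% of all reads counted. The kit adds no molecular identifiers, so reads are not counts of molecules.

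Numbers of WT Ly49C/I+ libraries (1, 2, 4, 5, 7 and 8) follow the second label line, from which their titles differ. No 2 libraries agreed within sampling noise. Symbols and positions came from GENCODE M21 (52147 of 53700 identifiers, 8 of 8 members), whose gene models may differ from those used for counting. Neat1 and Rnu3a have no start region in the RefSeq table used. A snoRNA was taken to lie in a gene when it fell in an intron of at least 1 transcript on the same strand.

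CPM used TMM factors, except in the filter and for single cell type markers, which were scaled to library size alone. For each comparison the quasi-likelihood test of edgeR 4.0.16 (R 4.3.3, Benjamini-Hochberg, threshold 0.05) was run on genes reaching 5 CPM in 0.5 or more of its libraries, fitted to its own groups alone and adjusted over all genes tested. Scripts were tested on simulated counts. Shares and correlations used scipy 1.17.1. The members and gene lists were chosen with earlier results of these data known. By rule, each list is described by its counts, its median and at most the 4 called genes with the smallest adjusted p. Alternatives were DESeq2 1.42.0, the likelihood ratio test, GC and length offsets (splines with 5 degrees of freedom), RLE factors, a block for the replicate number, 2 other filters, a joint fit of all groups, the share of reads given to no gene as a covariate, no libraries numbered 5, and each library left out in turn. Some results of the marker and paraspeckle lists are not reported here.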

Additional observations from a re-analysis of the deposited data

Results flagged for a closer look

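In groups of 5 to 9 libraries, 45 sets of values (8 members and the share of reads given to no gene, in 5 groups) were checked for a library whose gap to its nearest neighbour is large against the range of the group (Dixon's 95% limit). Chance gives about 1 in 20, and 7 of 45 exceeded the limit, 6 of them in 2 libraries. KO uneducated 4 had 207.5 CPM of Neat1 (next highest 90.2), 669.3 CPM of Malat1 (next 362.2) and gave 5.674% of its reads to no gene (next 4.083%). WT uneducated 5 had 684 CPM of Malat1 (next 249.5), 402.2 CPM of Gas5 (next 282.7) and 23.4 CPM of Snhg12 (next 13.57). WT Ly49C/I+ 5, the library with the largest share of reads given to no gene, had 32.06 CPM of Snhg12 (next 15.17).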

How the results depend on the processing

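RLE factors and a filter of 1 CPM moved no count of calls by over 1.5 times. Whether equal numbers pair the libraries is not stated, and the main fits did not pair them. Same-numbered deviations correlated at -0.247 to 0.273, with 4 of 9, 4 of 6, 2 of 6, 1 of 5, 3 of 8 and 0 of 4 pairs over 0.1. In the same order, 6, 5, 6, 3, 3 and 1 libraries were closest to their own number. Most WT libraries compared with WT libraries were thus closest to their own number, a hint of pairing from the data and not the design. KO and WT libraries come from different mice, so a block between genotypes cannot pair libraries by mouse. With the replicate number as a block, members called were 2 for NKG2A+ against uneducated (Neat1 in addition, adjusted p = 0.0159), 5 for WT Ly49C/I+ against uneducated (Malat1 and Gas5 in addition, adjusted p = 0.0291 and 0.0293) and 1 in KO mice (759 genes, without Dubr, adjusted p = 0.116), Malat1 became 0.027 in the first, and Neat1 and Malat1 became 0.146 and 0.130 between KO and WT Ly49C/I+ cells. With the block and GC and length offsets, members called were 5 for WT Ly49C/I+ cells and 0 in KO mice (565 genes), 130 genes were called for NKG2A+ against Ly49C/I+ cells, and Gas5 (NKG2A+ against uneducated), Rnu3a (KO against WT uneducated) and Neat1 (KO against WT Ly49C/I+) became -0.032, 0.000 and 0.110. With the offsets alone, NKG2A+ against Ly49C/I+ cells gave 125 genes and 5 members, and Gas5 (NKG2A+ against uneducated) and Malat1 (KO against WT uneducated) became -0.090 and -0.017.

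In NKG2A+ against Ly49C/I+ cells, DESeq2 called 558 genes, the likelihood ratio test 442 and 4 members, and no filter 104 and 1. DESeq2 called 2 members for NKG2A+ against uneducated cells, 118 genes for KO against WT Ly49C/I+ cells, and 1 gene each for KO against WT uneducated cells and the difference of effects. The likelihood ratio test called 1 gene for KO against WT uneducated and 62 genes and 1 member for KO against WT Ly49C/I+ cells. No filter gave 0 members (NKG2A+ against uneducated), 451 genes (WT Ly49C/I+) and 889 genes and 1 member (KO). All groups in 1 fit gave 1528 genes and 5 members in WT Ly49C/I+ cells, 1 member in KO mice and 18 genes for KO against WT Ly49C/I+ cells. Without libraries numbered 5, members called were 2 and 5 for NKG2A+ and Ly49C/I+ against uneducated cells, and Malat1 became 0.282 in the former.

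With the share of reads given to no gene as a covariate, calls were 12 genes (WT Ly49C/I+), 25 (NKG2A+ against Ly49C/I+) and 359 (KO), with 0 members in each and in NKG2A+ against uneducated cells. Signs turned for Gas5 and Snhg12 (-0.044, -0.029) in NKG2A+ against uneducated, Malat1, Gas5, Snhg8 and Snhg12 (-0.778, -0.052, -0.147, -0.361) in WT Ly49C/I+, Malat1, Snhg8 and Snhg12 (0.125, 0.177, 0.340) in NKG2A+ against Ly49C/I+, Malat1 in KO Ly49C/I+ (-0.098), Neat1, Malat1 and Snhg8 (0.238, 0.367, 0.092) in KO against WT Ly49C/I+ cells, and Malat1 in the difference of effects (0.434). Leaving out KO uneducated 4 and WT uneducated 5, chosen after seeing the data, turned Gas5 (0.011) and Snhg12 (0.046) in KO against WT uneducated cells and Snhg12 (-0.008) in the difference of effects. On untransformed CPM, r of Dubr with the share was 0.283.

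Leaving out each library in turn, members called ranged from 0 to 2 (NKG2A+), 3 to 6 (WT Ly49C/I+), 1 to 3 (NKG2A+ against Ly49C/I+) and 1 to 5 (KO), and genes from 461 to 1234, 147 to 306 and 967 to 1763 in the last 3, lowest in WT Ly49C/I+ and NKG2A+ against Ly49C/I+ without Ly49C/I+ 7, and from 0 to 15 for KO against WT Ly49C/I+. Signs turned within -0.012 to 0.147 (Gas5), -0.217 to 0.25 (Malat1) and -0.02 to 0.283 (Snhg12) in NKG2A+ against uneducated, -0.029 to 0.16 (Snhg8), -0.102 to 0.056 (Gas5), -0.154 to 0.115 (Snhg12) and -0.275 to 0.446 (Malat1) in KO against WT uneducated, -0.065 to 0.324 (Snhg12), -0.198 to 0.117 (Malat1) and -0.287 to 0.011 (Neat1) in KO against WT Ly49C/I+, and -0.023 to 0.366 (Snhg12) and -0.306 to 0.016 (Malat1) in the difference of effects. The difference in the share ranged from 0.745 to 1.25 points in KO mice and -0.218 to 0.218 between KO and WT uneducated libraries. The cause of these changes was not tested.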
